A study of Mus musculus with 12 samples.

Results

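Matriptase, prostasin and TMPRSS2 are serine proteases anchored in the cell membrane, and HAI-1 and HAI-2 are membrane-bound Kunitz-type inhibitors of them. The 5 genes described here encode these proteins: St14 (matriptase), Prss8 (prostasin), Tmprss2, Spint1 (HAI-1) and Spint2 (HAI-2). They were chosen by name as a known protease and inhibitor system, and each was 1 of the 24458 gene rows of the expression table. All 5 were among the 13122 genes that reached 1 FPKM in at least 3 libraries and were tested. FPKM counts sequenced fragments per kilobase of a gene, relative to library size, so levels of different genes may be set side by side.

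In epithelia, matriptase and prostasin activate each other's precursors at the cell surface, and the HAI proteins hold both in check. Known matriptase substrates include the precursor of hepatocyte growth factor (HGF), whose receptor is Met, the urokinase precursor, and the surface proteins EpCAM and CDCP1. Prostasin is known as an activator of the epithelial sodium channel in airway and kidney. TMPRSS2 is expressed in airway and prostate epithelium and is known for cleaving viral surface proteins.

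RNA was sequenced from 4 untreated mouse small-cell lung cancer cell lines, to compare cells that metastasize with cells that do not. The lines came from Rb1 L/L Trp53 L/L mice, in which tumors arise after both tumor suppressor genes are deleted in the lung by intratracheal Ad-CMV-Cre, a virus that drives Cre from a promoter active in many cell types. SMC (SCLC metastasizing cells) are lines of NCAM hi CD44 lo/- sorted cells, which grow as floating spheres, and Non-SMC are lines of NCAM lo CD44 hi sorted cells, which grow attached. The paper's data availability text ties the series to SMC carrying control or mutant TAZ instead, so what the libraries are rests on the labels. They give the lines SMC#1, Non-SMC#1, SMC#2 and Non-SMC#2, with 3 libraries each, so that each type has 6 libraries but only 2 lines. All 4 lines derive from the same model, of mixed C57Bl/6, Balb-c and S129 background, and were grown in the same medium. The ages of the mice were not used here.

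Mapped fragments per library numbered roughly 28400000 to 43800000, as judged by how far apart low values stood. Libraries of the same line ranked genes alike (Spearman's rho 0.983 to 0.997), lines of the same type less so (0.909 to 0.926) and lines of different types least (0.634 to 0.659). The neuroendocrine markers Chga, Insm1 and Syp together reached 519 to 694 FPKM in SMC libraries and at most 1.497 FPKM in Non-SMC libraries. The mesenchymal markers Vim, Col1a2, Sparc and Cd44 together reached at most 0.565 FPKM in SMC libraries and 2008 to 3931 FPKM in Non-SMC libraries. The epithelial markers Epcam, Cdh1, Krt8, Krt18 and Cldn7 divided the Non-SMC lines. Their sum was 481 to 541 FPKM in SMC#1, 0.788 to 1.38 FPKM in Non-SMC#1, 703 to 832 FPKM in SMC#2 and 481 to 551 FPKM in Non-SMC#2.

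The stretches before annotated gene starts are shown first, since they precede start sites of genes compared below. RefSeq (GRCm38.p6) gave a start-site window for 3 of the 5 genes. The windows lie on chromosome 2 at chr2:119237110-119237359 (plus strand) for Spint1, at chr16:97611196-97611445 (minus strand) for Tmprss2 and at chr7:29282060-29282227 (minus strand) for Spint2, where another RefSeq transcript starts within the window and only the 168 bases before that outermost start are printed. The Tmprss2 window precedes the start that the FPKM table and GENCODE use, but RefSeq also gives an outermost start 48346 bases further upstream, so that within that longer gene the window is not its outermost promoter. Capitals mark GGGCGG or its complement CCGCCC, the core of a GC box.
Spint1: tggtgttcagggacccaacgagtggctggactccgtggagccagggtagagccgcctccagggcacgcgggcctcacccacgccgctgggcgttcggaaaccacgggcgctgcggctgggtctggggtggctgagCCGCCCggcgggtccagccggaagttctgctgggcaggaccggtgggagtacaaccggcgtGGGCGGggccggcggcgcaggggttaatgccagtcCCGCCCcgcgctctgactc
Tmprss2: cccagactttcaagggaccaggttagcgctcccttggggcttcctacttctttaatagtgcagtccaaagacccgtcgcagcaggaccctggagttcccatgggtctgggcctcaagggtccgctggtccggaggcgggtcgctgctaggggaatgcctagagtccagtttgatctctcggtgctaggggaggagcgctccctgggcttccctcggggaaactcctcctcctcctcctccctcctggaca
Spint2: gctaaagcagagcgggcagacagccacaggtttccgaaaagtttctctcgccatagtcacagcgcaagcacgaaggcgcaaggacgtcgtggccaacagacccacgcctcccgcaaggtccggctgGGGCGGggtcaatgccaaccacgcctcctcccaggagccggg
The Spint1 stretch was 72.8% G or C with 26 CG pairs over 250 bases, and the Tmprss2 stretch was 61.6% G or C with 10 CG pairs. GGGCGG or CCGCCC stood 3 times in the 250 bases before the Spint1 start and 3 times in those before the Spint2 start. It stood 0 times in those before the Tmprss2 start. Of 32851 promoters, 32.7% held at least 1 and 8.47% at least 3.

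The motifs were searched on both strands, and no matches of different motifs overlapped. CACCTG or its complement CAGGTG, the core bound by repressors of the ZEB and SNAI families, stood 3 times in the 250 bases before the Spint2 start and 0 times in those of Spint1 and Tmprss2. It occurred at least once in 17.2% of the 32851 promoters and at least 3 times in 0.25%. The matches lie between the outermost start and the start of the window's own transcript. Both short stretches of the Spint2 window that hold them (chr7:29282025-29282053 and chr7:29281979-29281988, minus strand) are printed with the motif in capitals.
Spint2 stretch A: gcCAGGTGcaggccgcagagcCAGGTGcg
Spint2 stretch B: gcCAGGTGcg
AACCGGTT, the grainyhead core (0.1% of promoters), and TATAAA or TTTATA, the TATA box core (12.4%), had 0 matches in all 3 windows. A match of letters describes the sequence and is not evidence of binding.

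St14 was detected in both SMC lines and in only 1 Non-SMC line. It lies on mouse chromosome 9 (mm9 chr9:30896175-30939384) and encodes the protease matriptase. Its level was 16.8, 16.05 and 18.0 FPKM in SMC#1 and 20.0, 21.4 and 17.6 FPKM in SMC#2. It was listed at 0 in each Non-SMC#1 library and was 6.45, 7.10 and 8.64 FPKM in Non-SMC#2. Each SMC library thus lay above each Non-SMC library, and Non-SMC#2 kept 37.6% of the SMC#2 mean. Levels in such bulk RNA cannot tell fewer cells expressing a gene from less RNA per cell.

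On the scale log2(FPKM + 1), the SMC minus Non-SMC difference of St14 was 2.73 ± 0.068 (SE, limma, adjusted p = 2.05e-13). It was 4.16 ± 0.096 in pair 1, SMC#1 minus Non-SMC#1, and 1.31 ± 0.096 in pair 2, SMC#2 minus Non-SMC#2. The first value depends on the added 1 FPKM, because Non-SMC#1 was listed at 0. With each line taken as 1 unit in limma, the difference had an adjusted p of 0.0943. St14 differed little between the SMC lines, by -0.20 ± 0.096 (SMC#1 minus SMC#2, limma, adjusted p = 0.0898), and passed the threshold without SMC#2 replicate 3 (-0.28, adjusted p = 0.0386), Non-SMC#2 replicate 1 (-0.20, adjusted p = 0.0462) or Non-SMC#2 replicate 3 (-0.20, adjusted p = 0.0314).

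Prss8 followed at a lower level. It lies on chromosome 7 (mm9 chr7:135069231-135073627) and encodes prostasin, a protease held in the membrane by a lipid anchor. It was at 3.91, 3.804 and 4.67 FPKM in SMC#1 and at 9.91, 8.58 and 8.44 FPKM in SMC#2. In Non-SMC#1 it was listed at 0 in 2 libraries and at 0.0203 FPKM in the other, a value of about 1 fragment, and in Non-SMC#2 it was at 1.66, 1.44 and 1.63 FPKM. The types did not overlap, and the SMC lines stood apart as well, since SMC#1 held 46.0% of the SMC#2 mean. Per length, Prss8 was the lowest of the 4 genes that SMC#1 expressed above 1 FPKM.

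The SMC minus Non-SMC difference of Prss8 was 2.15 ± 0.055 on the log2(FPKM + 1) scale (SE, limma, adjusted p = 3.02e-13), with 2.35 ± 0.078 in pair 1 and 1.95 ± 0.078 in pair 2. In linear terms the SMC#2 mean was 5.70 times the Non-SMC#2 mean. The end of the neighbouring gene Kat8, a histone acetyltransferase, shares exon bases with Prss8, and without strand information reads there cannot be told apart. Kat8 averaged 17.3 ± 1.45 FPKM in SMC#1, 7.09 ± 0.187 in Non-SMC#1, 14.7 ± 1.42 in SMC#2 and 9.95 ± 0.440 in Non-SMC#2 (SD, n = 3 each). Like Prss8, Kat8 was thus higher in the SMC line of each pair. The part of Kat8 reads in the Prss8 values was not tested.

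Tmprss2 was abundant in a single line. It lies on chromosome 16 (mm9 chr16:97786289-97832802). Its level was 26.2, 23.8 and 23.9 FPKM in SMC#2, against 0.210, 0.360 and 0.206 FPKM in Non-SMC#2. In pair 1 it was 0.0899, 0.0838 and 0.122 FPKM in SMC#1 and listed at 0 in each Non-SMC#1 library. The SMC#2 libraries held all the high values, and the SMC#1 libraries lay below those of Non-SMC#2, so the types overlapped. The SMC#2 mean was 249.7 times the SMC#1 mean and 95.3 times the Non-SMC#2 mean. The SMC#1 values correspond to roughly 6.9 to 12.7 fragments if the longest coding transcript was counted, and to 1.0 to 1.8 fragments if the shortest was.

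Tmprss2 reached the level for testing only through the SMC#2 libraries, so a high level there was a condition of its being tested. Its p-values in comparisons that hold SMC#2 are therefore no separate support. The difference of Tmprss2 over both pairs, 2.24 ± 0.044 (SE, limma, adjusted p = 1.70e-14), was the mean of 2 unlike values. It was 4.35 ± 0.062 in pair 2 and 0.14 ± 0.062 in pair 1 (limma, adjusted p = 0.0585). The pair 1 value passed the threshold when 0.1 in place of 1 FPKM was added (0.99, adjusted p = 5.83e-05) and without Non-SMC#2 replicate 2 (0.14, adjusted p = 0.0373). With the line as the unit, the difference over both pairs had an adjusted p of 0.243 in limma.

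Both inhibitor genes followed the order of the 4 lines seen for Prss8. Spint1 lies on chromosome 2 (mm9 chr2:119063096-119075249) and encodes HAI-1, which binds active matriptase and prostasin. It was at 12.8, 12.7 and 13.3 FPKM in SMC#1 and at 25.2, 24.3 and 22.3 FPKM in SMC#2. In Non-SMC#1 it was at 0.105, 0.0157 and 0 FPKM, and in Non-SMC#2 at 2.90, 3.12 and 4.10 FPKM. No Non-SMC library reached the lowest SMC library, and Non-SMC#2 held 14.1% of the SMC#2 mean. The SMC minus Non-SMC difference was 3.13 ± 0.066 (SE, limma, adjusted p = 3.85e-14), with 3.74 ± 0.093 in pair 1 and 2.52 ± 0.093 in pair 2.

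Spint2 was the most abundant of the 5 genes in each line except Non-SMC#1. It lies on chromosome 7 (mm9 chr7:30041349-30066996) and encodes HAI-2, which is needed for normal intestinal epithelium and also inhibits hepsin and TMPRSS13. Its level was 161, 153 and 165 FPKM in SMC#1 and 210.4, 202 and 191 FPKM in SMC#2. It was 0.0363, 0.0321 and 0.0656 FPKM in Non-SMC#1, about 1 or 2 fragments per library, and 40.6, 33.2 and 41.4 FPKM in Non-SMC#2. The types did not overlap, and 99.3% of all rows lay below the Spint2 mean in SMC#2. In Non-SMC#2 the gene held 19.1% of the SMC#2 mean and still exceeded 91.4% of all rows.

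The Spint2 difference was 4.82 ± 0.058 over both pairs (SE, limma, adjusted p = 1.78e-16), 7.27 ± 0.083 in pair 1 and 2.37 ± 0.083 in pair 2. When each line counted as 1 unit, limma gave an adjusted p of 0.0850 for the difference over both pairs. The SMC lines differed by -0.33 ± 0.083 (SMC#1 minus SMC#2, limma, adjusted p = 0.00437).

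**Figure D1:**
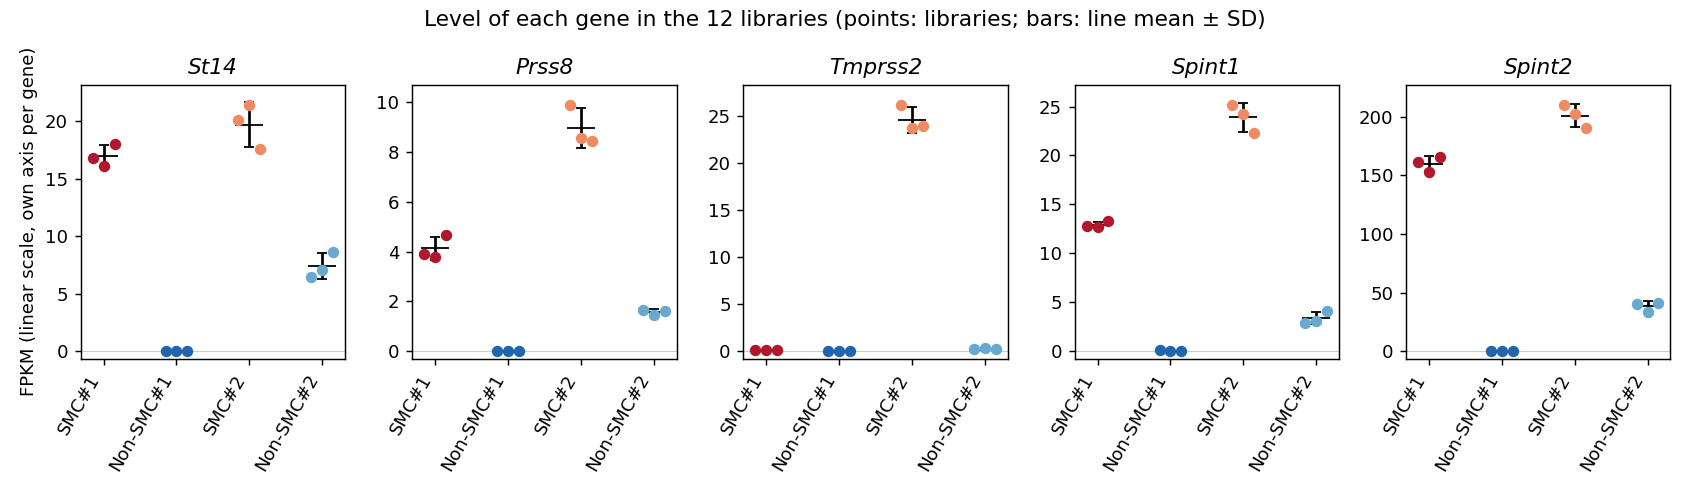
FPKM of St14, Prss8, Tmprss2, Spint1 and Spint2 (vertical axes, linear and separate for each gene) in the 3 libraries of each line (horizontal axis). Points are libraries and bars are the line mean ± SD. Non-SMC#1 lies at or near 0 for each gene, Non-SMC#2 lies between Non-SMC#1 and the SMC lines for 4 genes, and Tmprss2 is high only in the SMC#2 libraries, at 23.8 to 26.2 FPKM.

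Across all genes tested, 87.1% were called (adjusted p under 0.05) between SMC and Non-SMC, 44.7% as higher in SMC. The 5 calls out of 5, all higher in SMC, are therefore read from their sizes and not from their number. For Tmprss2, tested only through its SMC#2 level, the filter itself favoured a call. In pair 1, 4 of the 5 genes were called, all higher in SMC#1, where 80.4% of all genes were called and 43.9% were higher. In pair 2 all 5 were called and higher in SMC#2, where 82% of all genes were called and 39.2% were higher. For 4 of the 5 genes each SMC library exceeded each Non-SMC library, as did 28% of all genes tested. The median difference of the 5 was 2.73 on the log2(FPKM + 1) scale, beside 0.02 over all genes tested.

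The pairs differed for each gene. The pair 1 difference minus the pair 2 difference was 2.86 ± 0.14 for St14, 0.39 ± 0.11 for Prss8, -4.21 ± 0.087 for Tmprss2, 1.23 ± 0.13 for Spint1 and 4.90 ± 0.12 for Spint2 (SE). In limma the adjusted p ranged from 6.09e-13 for Tmprss2 to 0.00792 for Prss8, whose call was lost after quantile normalization (0.22, adjusted p = 0.12). A call was made for 60.6% of all genes. Tmprss2 was the gene with the larger difference in pair 2, and the other 4 had the larger difference in pair 1, where Non-SMC#1 was at or near 0.

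**Figure D2:**
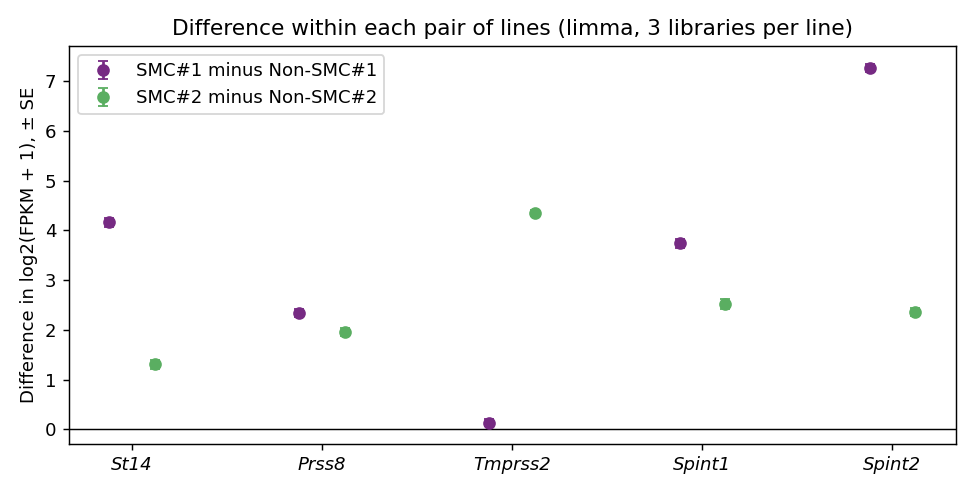
Difference in log2(FPKM + 1) between the lines of each pair (vertical axis) for the 5 genes (horizontal axis), as the limma estimate ± SE over 3 libraries per line. Spint2 has the largest pair 1 difference, at 7.27, and Tmprss2 the largest pair 2 difference, at 4.35, beside 0.14 in pair 1.

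Within the Non-SMC type, the lines were unlike each other for the 4 genes other than Tmprss2. Tmprss2 was low in both, at 0.206 to 0.360 FPKM in Non-SMC#2 and listed at 0 in Non-SMC#1, so its difference rests on values near the floor. Non-SMC#1 minus Non-SMC#2 was -3.06 ± 0.096 for St14, -1.35 ± 0.078 for Prss8, -0.33 ± 0.062 for Tmprss2, -2.06 ± 0.093 for Spint1 and -5.23 ± 0.083 for Spint2 (SE). In limma all 5 were called lower in Non-SMC#1, with adjusted p from 3.59e-14 for Spint2 to 0.000527 for Tmprss2. Of all genes tested, 57.3% were called in either direction, and 4132 of 13122 were lower in Non-SMC#1. Between the SMC lines, 4 of the 5 were called, all lower in SMC#1. Of all genes tested, 56.8% were called in either direction, and 2697 of 13122 were lower in SMC#1. The difference SMC#1 minus SMC#2 was -0.96 ± 0.078 for Prss8, -0.84 ± 0.093 for Spint1 and -4.54 ± 0.062 for Tmprss2.

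The levels in Non-SMC#2 were accompanied by other epithelial genes and not by neuroendocrine ones. Chga, the secretory granule protein gene at 227 FPKM in SMC#2, was listed at 0 in each Non-SMC#2 library, and Insm1, a neuroendocrine factor at 279.8 ± 23.1 FPKM in SMC#2, was at 0.871 ± 0.245 FPKM in Non-SMC#2 (SD, n = 3 each). Epcam held 16.6% of the SMC#2 mean in Non-SMC#2, Cdh1 25.1%, Krt8 79.5% and Krt18 168%. Leukocyte markers summed to at most 2.27 FPKM in SMC and 4.96 FPKM in Non-SMC libraries, with Cd68 the highest, and Cd3e and Cpa3 were listed at 0 throughout. Endothelial markers summed to at most 0.260 FPKM in SMC and 0.230 FPKM in Non-SMC libraries. Of the differentiated lung epithelium markers Sftpc, Sftpb, Scgb1a1, Foxj1, Krt5 and Trp63, only Sftpc and Foxj1 moved with the genes in pair 1. The sum of all these markers was 43.4 to 52.5 FPKM in SMC#1 and 0.0826 to 0.241 FPKM in Non-SMC#1. Nearly all of the SMC#1 sum was Sftpc, at 45.3 ± 5.23 FPKM, beside 1.33 ± 0.1745 FPKM for Foxj1. Sftpb and Scgb1a1 were listed at 0 in each SMC#1 library. In pair 2 all these markers summed to 4.87 to 6.88 FPKM in SMC#2 and 3.34 to 4.10 FPKM in Non-SMC#2, with Foxj1 the highest. Trp63 went the other way, at 1.18 ± 0.252 FPKM in Non-SMC#2 and at most 0.0149 FPKM in an SMC library. Krt5 and Sftpb were under 1 FPKM in each line. The part of other cell types in the levels was not tested.

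The balance between protease and inhibitor transcripts was compared within libraries, as the log2 ratio of their FPKM, for the 3 lines in which no value was 0. These ratios are descriptions with no test. The St14 to Spint1 ratio was 0.39 ± 0.048 in SMC#1, -0.28 ± 0.089 in SMC#2 and 1.14 ± 0.057 in Non-SMC#2 (SD, n = 3 each). Matriptase transcripts thus stood at 0.822 of HAI-1 transcripts in SMC#2 and at 2.20 times them in Non-SMC#2, and the ranges of the 3 lines did not overlap. The Prss8 to Spint1 ratio was -1.65 ± 0.13 in SMC#1, -1.42 ± 0.078 in SMC#2 and -1.09 ± 0.27 in Non-SMC#2. The Tmprss2 to Spint1 ratio was -7.05 ± 0.26 in SMC#1, 0.04 ± 0.069 in SMC#2 and -3.74 ± 0.60 in Non-SMC#2, so that TMPRSS2 and HAI-1 transcripts were about level in SMC#2 alone.

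HAI-2 transcripts outnumbered each protease in all 3 lines. The St14 to Spint2 ratio was -3.24 ± 0.034 in SMC#1, -3.36 ± 0.10 in SMC#2 and -2.38 ± 0.24 in Non-SMC#2. The Prss8 to Spint2 ratio was -5.28 ± 0.12 in SMC#1, -4.49 ± 0.076 in SMC#2 and -4.60 ± 0.071 in Non-SMC#2, and the order of SMC#2 and Non-SMC#2 turned round when 1 FPKM was added to both genes (-4.34 and -3.93). The Tmprss2 to Spint2 ratio was lower still outside SMC#2, at -10.68 ± 0.24 in SMC#1, -3.03 ± 0.053 in SMC#2 and -7.26 ± 0.64 in Non-SMC#2. Between the inhibitors, the Spint1 to Spint2 ratio was -3.63 ± 0.033 in SMC#1, -3.07 ± 0.022 in SMC#2 and -3.52 ± 0.26 in Non-SMC#2. HAI-1 transcripts were therefore near 0.0808 to 0.119 of HAI-2 transcripts wherever the system was expressed.

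**Figure D3:**
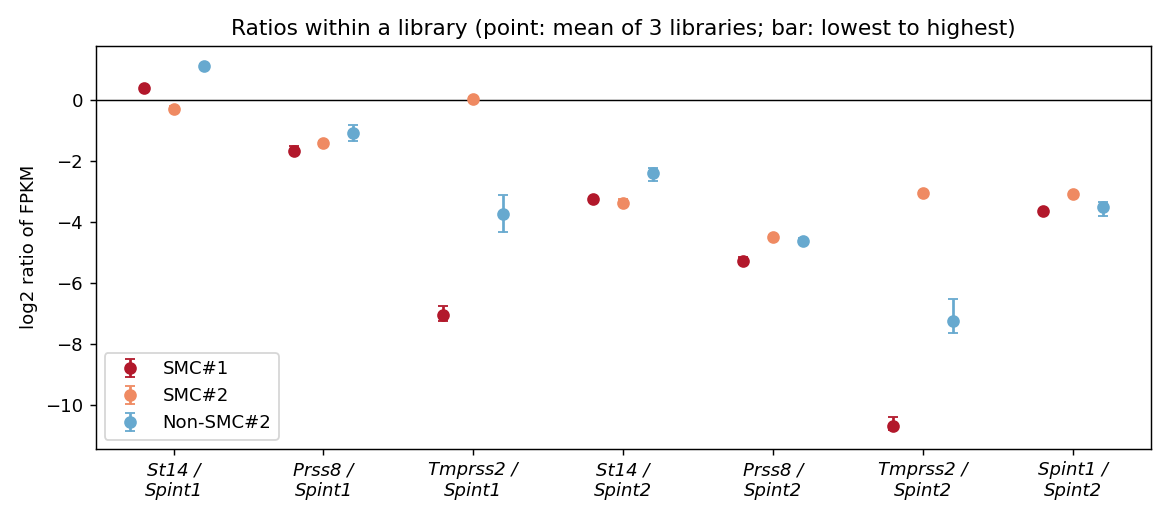
Log2 ratio of FPKM within a library (vertical axis) for 7 pairs of genes (horizontal axis) in SMC#1, SMC#2 and Non-SMC#2; points are means of 3 libraries and bars run from the lowest to the highest library. Non-SMC#1 has no ratio because of values of 0. The St14 to Spint1 ratio is highest in Non-SMC#2, at 1.14, and ratios with Tmprss2 spread most between lines.

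Related genes were taken from lists of proteases, inhibitors, substrates and regulators, and are given by their calls between SMC and Non-SMC in limma. Among all genes tested, 44.7% were higher and 42.4% lower in SMC. Of 22 other serine proteases listed, 21 were in the table and only 3 reached the level for testing. Tmprss4, a relative of TMPRSS2 found in several epithelial tumors, averaged 25.1 ± 2.91 FPKM in SMC#1 and 5.21 ± 0.104 in SMC#2 (SD, n = 3) and was listed at 0 in each Non-SMC library. Prss22, a tryptase-like protease of airway, was lower in SMC through Non-SMC#2 alone, with at most 0.0324 FPKM in an SMC library, 0.101 ± 0.0952 FPKM in Non-SMC#1 and 23.4 ± 3.08 FPKM in Non-SMC#2, and it was not called in pair 1 (-0.12, limma, adjusted p = 0.213). Tmprss13, named after its values were seen as the third gene tested, was higher in SMC, at 3.06 ± 0.889 FPKM in SMC#2 and 0.252 ± 0.0253 in SMC#1. Each of the 3 had its highest mean in a different line, Tmprss4 in SMC#1, Tmprss13 in SMC#2 and Prss22 in Non-SMC#2.

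The median SMC minus Non-SMC difference of those 3 was 1.16 on the log2(FPKM + 1) scale. Each of them reached the level for testing only through lines of a single type, so the filter itself favoured their calls. Neither the calls nor the median are therefore separate support. Of 12 other genes with Kunitz domains, 5 were tested, 4 of them higher and 1 lower in SMC, with a median of 1.20. App, the amyloid precursor whose longer forms carry a Kunitz domain, was lower, at 65.9 ± 2.50 FPKM in SMC#1, 109.6 ± 1.07 in Non-SMC#1, 105 ± 11.6 in SMC#2 and 161 ± 15.2 in Non-SMC#2. Its relative Aplp2 was at 69.7 ± 2.17 FPKM in SMC#1, 71.8 ± 2.70 in Non-SMC#1, 142 ± 5.55 in SMC#2 and 52.8 ± 3.18 in Non-SMC#2. These transcripts were abundant in Non-SMC#1, where both HAI genes were near 0, although gene-level values cannot show which forms carry the domain.

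Among serpins known to inhibit these or related proteases, 1 is described here. Serpine2 (protease nexin-1), an inhibitor of thrombin and prostasin, was 41.96 ± 1.02 FPKM in SMC#1, 18.6 ± 0.233 in Non-SMC#1, 101 ± 4.80 in SMC#2 and 77.5 ± 3.20 in Non-SMC#2. Serpine2 was called higher in SMC in limma, with a difference of 0.76 that was smaller than that of any of the 5 genes over both pairs.

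Of 13 listed substrates and receptors of the system, 12 were in the table and 8 were tested, with a median of -1.03. The 3 higher in SMC were Epcam, Scnn1a and Cdcp1, and the 5 lower were Hgf, Met, Plau, Plaur and F2rl1. In pair 1, F2rl1, a receptor cleaved by proteases, was higher in SMC#1 (0.27, limma, adjusted p = 0.00086). Its levels there were low, at 0.217 ± 0.0122 FPKM in SMC#1 and 0.00835 ± 0.0145 FPKM in Non-SMC#1. Hgf and F2rl1 reached the level for testing only through Non-SMC#2, Plaur only through Non-SMC lines and Scnn1a only through SMC lines. The filter itself favoured those calls. Epcam was 198 ± 7.41 FPKM in SMC#1, 273 ± 18.1 in SMC#2 and 45.5 ± 7.29 in Non-SMC#2, and at or near 0 in Non-SMC#1. Scnn1a, a subunit of the epithelial sodium channel, was 63.5 ± 5.13 FPKM in SMC#1, 0.486 ± 0.146 in Non-SMC#1, 19.2 ± 1.43 in SMC#2 and 0.322 ± 0.114 in Non-SMC#2. Scnn1a had a lower mean in SMC#2 than in SMC#1, an order that none of the 5 genes had, and like Tmprss2 it stayed under 1 FPKM in Non-SMC#2. The partner subunits Scnn1b and Scnn1g reached 1 FPKM in no line mean and were not tested.

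Plau, the urokinase gene, was 1.88 ± 0.127 FPKM in SMC#1, 13.7 ± 1.03 in Non-SMC#1, 1.54 ± 0.405 in SMC#2 and 77.3 ± 3.74 in Non-SMC#2. Plaur, its receptor, was at most 0.203 FPKM in an SMC library and 39.7 to 61.7 FPKM in Non-SMC libraries. Of 5 other activators of HGF only Plat, the tissue plasminogen activator, was tested, and it was lower in SMC, at 0.392 to 0.919 FPKM in SMC libraries and 42.3 to 49.96 FPKM in Non-SMC libraries. Between the types, the plasminogen activator genes therefore ran opposite to St14, Prss8, Spint1 and Spint2, with no overlap among the 12 libraries. How many of all genes tested split that way was not counted. Within the Non-SMC type, Plau was higher in Non-SMC#2 than in Non-SMC#1, as the 5 genes were.

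All 14 listed regulators of epithelial genes were tested, of which 10 were higher and 4 lower in SMC, with a median of 1.88. Esrp1, an epithelial splicing factor, was 44.0 ± 1.06 FPKM in SMC#1, 62.3 ± 1.80 in SMC#2 and 5.37 ± 0.542 in Non-SMC#2, and was listed at 0 in each Non-SMC#1 library. Elf3, an epithelial ETS factor, was 49.3 ± 6.27 FPKM in SMC#1, 0.462 ± 0.108 in Non-SMC#1, 40.6 ± 3.09 in SMC#2 and 3.45 ± 1.12 in Non-SMC#2. In both, Non-SMC#2 lay between Non-SMC#1 and the SMC lines, as it did for the 4 genes other than Tmprss2. Klf5, a zinc-finger factor of epithelia, was 36.7 ± 0.624 FPKM in SMC#1 and 10.5 ± 0.220 in Non-SMC#1, but 40.5 ± 3.84 in SMC#2 beside 43.0 ± 2.01 in Non-SMC#2.

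The 4 lower regulators were the repressors Zeb1, Zeb2, Snai1 and Snai2, whose families bind the CACCTG core shown above. Snai2 was 6.52 ± 0.1997 FPKM in SMC#1, 44.8 ± 0.651 in Non-SMC#1, 1.28 ± 0.0356 in SMC#2 and 22.1 ± 1.01 in Non-SMC#2. Zeb1, named after its values were seen, was 4.70 ± 0.310 FPKM in SMC#1, 17.7 ± 0.918 in Non-SMC#1, 0.190 ± 0.0469 in SMC#2 and 18.3 ± 1.59 in Non-SMC#2. The Zeb1 means of the Non-SMC lines lay within 1 SD of each other, but the repressors were not alike in this. Snai2 was higher in Non-SMC#1, whereas Snai1 averaged 4.865 ± 0.601 FPKM there against 22.1 ± 5.81 FPKM for Non-SMC#2. Zeb2 averaged 8.97 ± 0.205 FPKM against 9.56 ± 1.34 FPKM for the same lines. For Spint2 the Non-SMC#1 mean was 0.0446 ± 0.0182 FPKM, and the Non-SMC#2 mean was 38.4 ± 4.52 FPKM. Whether any of these repressors acts on Spint2 was not tested. Grhl3, a grainyhead factor also named after its values were seen, had the pattern of Tmprss2, with 12.5 ± 0.169 FPKM in SMC#2, 0.238 ± 0.0296 in SMC#1, at most 0.0700 in a Non-SMC#2 library, and it was listed at 0 in Non-SMC#1.

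**Figure D4:**
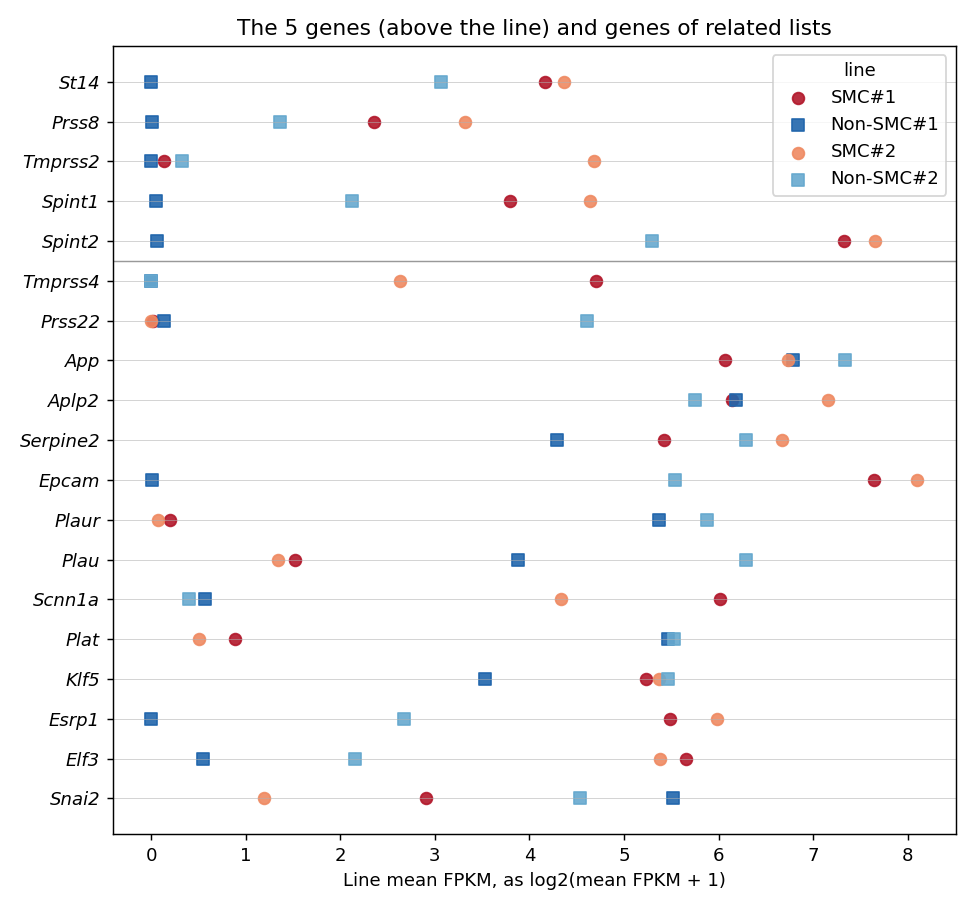
Line means, as log2(mean FPKM + 1) (horizontal axis), of the 5 genes and of the related genes named by level in each list (vertical axis); circles are SMC lines and squares Non-SMC lines. Epcam and Esrp1 lie like Spint2, with Non-SMC#2 in between, whereas Plaur and Plat lie low in both SMC lines and high in both Non-SMC lines.

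The genes most like each member over the 12 libraries were found by Pearson's r on log2(FPKM + 1), with no test, since the libraries of a line share their source and any gene that separates the 4 lines gives a high r. St14 was closest to Spint2 (r = 0.999), Epcam (0.997) and Mapk13 (0.995), a p38 kinase. Spint2 was closest to Epcam (0.999), St14 (0.999) and Celf2 (0.998), an RNA-binding protein gene. Spint1 was closest to Ap1m2 (0.999), a clathrin adaptor subunit of polarized epithelia, Kdf1 (0.998) and Tmcc3 (0.997). Ap1m2 was 25.9 ± 1.66 FPKM in SMC#1, 47.1 ± 2.40 in SMC#2, 4.77 ± 0.915 in Non-SMC#2, and was listed at 0 in Non-SMC#1.

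Prss8 was closest to Hmgn2 (0.996), a nucleosome-binding protein gene, Fam83f (0.995) and Ehf (0.995), an epithelial ETS factor. Tmprss2 was closest to Lipo1 (above 0.99), Rimklb (0.999) and Gpx3 (0.999), a secreted glutathione peroxidase, all of them under 1 FPKM outside SMC#2. Among the 5 genes, r was 0.939 to 0.999 for the pairs without Tmprss2 and 0.517 to 0.750 for those with it. Counted after their values were seen, 97 genes (0.739% of those tested) were under 0.2 FPKM in each Non-SMC#1 library and at least 1 FPKM in the other 9 libraries, among them the 4 genes other than Tmprss2. The pattern of Tmprss2, at least 5 FPKM in each SMC#2 library and under 0.5 FPKM in the other 9, was shared by 22 genes (0.168%), Tmprss2 included.

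The nearest tested genes given here had smaller differences than the member over both pairs, on the same log2(FPKM + 1) scale in limma. Beside St14 (2.73), Zbtb44 differed by 1.154 and Aplp2 by 0.69 between SMC and Non-SMC. Beside Prss8 (2.15), the difference was -0.33 for Bckdk and 0.85 for the overlapping Kat8. Beside Spint1 (3.13), it was 0.43 for Zfyve19 and 0.74 for Rhov. Over both pairs these neighbours of the 3 genes thus changed less, at distances of up to 20309 bases. In pair 2 alone, Aplp2 differed by 1.41 and Zbtb44 by 1.14, beside 1.31 for St14, so Aplp2 changed slightly more there. In pair 1, where St14 was listed at 0 in Non-SMC#1, Aplp2 differed by -0.04.

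Beside Tmprss2 in pair 2 (4.35), Bace2 differed by 0.66 and Ripk4 by 0.63, and in pair 1 (0.14) Bace2 differed by 1.65 and Ripk4 by 2.27. Both neighbours were thus higher in SMC#1 than in Non-SMC#1, where Tmprss2 was not called. Beside Spint2 (4.82), Ppp1r14a differed by 0.94, and 2200002D01Rik by -3.00, with 0.608 ± 0.149 FPKM in SMC#2 and 106.9 ± 41.4 FPKM in Non-SMC#2. That gene lies 7862 bases from Spint2, and its difference rested on pair 2 (-6.01), since it was 0.02 in pair 1 (limma, adjusted p = 0.963).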

How the data were processed

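The deposited table holds FPKM values, made by the authors for 1 row per gene and 12 libraries with replicates kept apart. The submitters' notes name STAR 2.6.1b for mapping of the paired-end reads and DESeq2 for the study's own test. For the step that gave FPKM, no program is named in the sources used here. The notes name mm10, but only 2570 of 22422 unshared symbols overlapped their GRCm38 position, and the positions are those of mm9, printed with the first base as 1. The study's count-based test was not run, because the values are not counts.

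Depth was estimated from the spacing of low values in 2931 single-transcript genes, taking fragments to be 300 bp long. From 70.6% to 76.3% of those values lay within 0.1 of a whole number, so the count test was not added. No strand setting was given. A value of 0 can be a failed estimate, so such genes are described as listed at 0 and no fold is given against them.

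Genes that reached 1 FPKM in 3 or more libraries were fitted as log2(FPKM + 1) with limma 3.58.1 in R 4.3.3 (trend and robust options, a mean per line), which understates changes of low genes. The SMC minus Non-SMC difference was the mean of both pairs. Tests were two-sided, with Benjamini-Hochberg adjustment over all 13122 genes. A gene that reached 1 FPKM only in a single line or type was tested through its level there, which favours a call. No source says whether a line's libraries are separate cultures, so p-values measure the spread between libraries, which may be technical. The procedure was tested on simulated data.

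The 5 genes and the lists were chosen with earlier results of these data known. Named genes were up to 4 per list with the highest mean among those reaching 5 FPKM in a line, the 3 genes most like each member, and its nearest tested neighbours. Tmprss11b and Flg were not analysed here, and a few genes that the lists or the naming rule held are not reported here. Alternatives were another pseudocount, no filter, other scalings, the line as unit, a replicate block, no trend and leaving out each library. Rescaling each library to the same FPKM sum was added after seeing the data. Promoter letters are those of RefSeq.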

Additional observations from a re-analysis of the deposited data

Results flagged for a closer look

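For each of the 5 genes the SMC minus Non-SMC difference was unlike in the pairs, by a limma interaction test on log2(FPKM + 1). The pair 1 difference minus the pair 2 difference was 2.86 for St14, 4.90 for Spint2, 1.23 for Spint1 and 0.39 for Prss8, and it was -4.21 for Tmprss2. Of all genes tested, 60.6% passed this test. With 0.1 in place of 1 FPKM added, the values were 6.01 for St14, 7.73 for Spint2, 3.81 for Spint1, 2.87 for Prss8 and -5.15 for Tmprss2, so their size depends on the added value while their direction did not change.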

How the results depend on the processing

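Of 557 alternative values of the 5 genes' differences, 544 kept their direction and their side of the threshold, 9 passed it newly and 4 fell below it, and none changed direction. With the line as the unit, limma's SMC minus Non-SMC difference was 2.73 for St14 (adjusted p = 0.0943), 2.24 for Tmprss2 (0.243) and 4.82 for Spint2 (0.085), and 2389 in place of 11430 genes were called, with 4 lines in place of 12 libraries. The St14 difference between the SMC lines passed the threshold after median-ratio scaling (-0.32), quantile normalization (-0.34) and rescaling to an equal FPKM sum per library (-0.37), and the Tmprss2 difference of pair 1 passed after that rescaling (0.37). The rescaling, chosen after seeing the data, moved the median of all genes by 0.28, to 0.31, and the higher share of calls to 62.2%, against 51.4%. Leaving out 1 library gave 2.69 to 2.79 for St14, 2.11 to 2.17 for Prss8, 2.23 to 2.27 for Tmprss2, 3.09 to 3.19 for Spint1 and 4.77 to 4.84 for Spint2, and 10987 to 11336 genes called. Leaving out any 1 of the SMC#2 libraries put Tmprss2 under the level filter, so those fits gave no value for it.

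With 1 FPKM added to both genes, 15 of 21 ratios moved by more than 1 SD, most of all those with Tmprss2. The log2 ratio of Tmprss2 to Spint1 was then -3.66 in SMC#1 and -1.79 in Non-SMC#2, and that of Tmprss2 to Spint2 -7.19 and -4.96. That of Prss8 to Spint1 was -1.45 in SMC#1, -1.32 in SMC#2 and -0.76 in Non-SMC#2, and that of Prss8 to Spint2 -4.97, -4.34 and -3.93 in the same lines. That of Spint1 to Spint2 was -3.53, -3.02 and -3.17. That of St14 to Spint1 was 0.94 in Non-SMC#2, and that of St14 to Spint2 was -3.17 in SMC#1. No clear pairing of libraries by replicate number was seen. Same-numbered libraries correlated at -0.382 to 0.314, and 2 of 6 pairs, both in pair 2, correlated best with their own number. With 3 libraries per line this check cannot exclude such a pairing. With the replicate block, 11426 genes were called and no call of the 5 genes changed. Values of about 1 or 2 fragments, as for Spint2 in Non-SMC#1, cannot be ordered at this depth.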
